A study of Mus musculus with 6 samples.

Results

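Ion channel subunit genes of the mouse left ventricle are described here. They were taken from the authors' table of 12072 genes by symbol alone, as every listed gene of the Kcn (potassium), Scn (sodium), Cacn (calcium), Hcn (pacemaker), Clcn (chloride) and Trpc, Trpm or Trpv (transient receptor potential) families, and 71 genes were found. Of these, 35 were potassium, 8 sodium, 11 calcium and 17 other channel genes. The symbol rule also takes in Trpc4ap, which encodes a protein that binds a TRPC channel and is no channel itself, and several auxiliary subunits that form no pore. All 71 passed the filter on low values, a mean of at least 1 ppm. Hearts came from mice kept on chow to an age of 30 weeks, either fl/fl, in which Mpc2 is flanked by recombination sites, or CS-Mpc2-/-, in which this gene of the mitochondrial pyruvate carrier is deleted. The Cre driver of the deletion is not given in the sources used here. Each group had 6 mice, each library pooled the RNA of 2 hearts, and each group had 3 libraries of ribosomal RNA-depleted total RNA. By its title the study is about glycogen build-up and heart failure after loss of pyruvate transport, and the comparison below sets the channel genes of both genotypes side by side.

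The cardiac action potential is shaped by these proteins in sequence. Sodium channels carry the upstroke, L-type calcium channels carry the plateau and trigger contraction, and potassium channels end the action potential and hold the resting potential. In the mouse ventricle repolarisation is fast and rests mainly on the transient outward current and on rapidly activating delayed rectifiers, whereas the rapid and slow delayed rectifiers that dominate in humans contribute little. Lower transcript levels of potassium channel subunits are a known feature of hypertrophied and failing hearts.

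The values are read coverage per 1000000 units of the library total (ppm), so a level in ppm grows with transcript length, and levels of different genes are compared only after division by transcript length in kb. The total coverage, counted in 1000000 of the smallest step of each library, ranged from 92.9 in fl/fl replicate 1 to 389 in fl/fl replicate 3, and fl/fl replicates 1 and 2 were the shallowest. In fl/fl the targeted gene Mpc2 had a level of 45.2, 38.9 and 27.7 ppm (replicates 1 to 3), and CS-Mpc2-/- had 14.9, 18.2 and 46.3. Values below are given in that replicate order. The library labelled CS-Mpc2-/- replicate 3 therefore goes against its label for this gene (p = 0.4 by a two-sided exact permutation test of 3 against 3 values, which cannot give less than 0.1). Whether the replicate 3 libraries of both groups carry their right labels cannot be told from these values, and every group value below takes the labels as given. Over all listed genes fl/fl replicate 3 stood apart from its group, lying nearer the CS-Mpc2-/- mean than the mean of fl/fl replicates 1 and 2 for 72.0% of them on the log2 scale, and for 52 of the 71 channel genes (73.2%). Results are for that reason given with all 6 libraries, without fl/fl replicate 3, and without replicate 3 of both groups. Since fl/fl replicate 3 was singled out for lying near CS-Mpc2-/-, leaving it out by itself tends to widen differences and lower p-values. Adjusted p-values from the fits without it are therefore descriptive and do not hold their nominal error rate. All 6 ventricular cardiomyocyte markers were measured, with a summed level of 47312 to 85846 ppm in fl/fl and 49122 to 57748 ppm in CS-Mpc2-/-. Most of each sum was Myh6 alone, at 65413, 66012 and 30974 ppm in fl/fl and 37522, 40319 and 33936 in CS-Mpc2-/-. Of the 6 markers 5 had a negative log2 difference with all 6 libraries, and Myl3 a positive one (0.43). The lowest fl/fl sum was that of replicate 3, and the part of these markers in the results below was not tested. Of 6 atrial markers only Nppa and Dkk3 were measured, and Myl4, Myl7, Sln and Bmp10 were not analysed here. In a tissue lysate, fewer cells of a type and less RNA per cell cannot be told apart.

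Promoter sequence is shown for 3 pairs of genes whose products join in one cardiac channel or carry one current. Both members of each pair had a lower mean in CS-Mpc2-/- and a limma adjusted p under 0.05 without fl/fl replicate 3. With all 6 libraries none of these genes passed that threshold, and the groups overlapped for Kcnj12 and Kcnip2. Each line gives the 250 bases before the RefSeq start of the gene, 5′ to 3′ on the strand of the gene, from the RefSeq table of build GRCm38.p6. Capitals mark matches to the GC box GGGCGG or to the E-box CANNTG on either strand. Kcnj3 and Kcnj5 form the G-protein-gated channel, Kcnj2 and Kcnj12 the inward rectifier of the resting potential, and Kcnd2 and Kcnip2 the pore and partner of the transient outward channel.
Kcnj3: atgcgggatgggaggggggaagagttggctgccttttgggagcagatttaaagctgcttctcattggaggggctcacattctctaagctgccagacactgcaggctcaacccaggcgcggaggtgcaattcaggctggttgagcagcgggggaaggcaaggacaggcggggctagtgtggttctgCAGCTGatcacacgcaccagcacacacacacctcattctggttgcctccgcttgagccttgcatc
Kcnj5: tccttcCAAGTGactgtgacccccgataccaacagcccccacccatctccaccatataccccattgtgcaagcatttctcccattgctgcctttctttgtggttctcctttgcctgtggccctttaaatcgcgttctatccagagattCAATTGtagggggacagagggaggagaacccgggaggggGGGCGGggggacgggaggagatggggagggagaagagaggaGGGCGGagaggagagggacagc
Kcnj2: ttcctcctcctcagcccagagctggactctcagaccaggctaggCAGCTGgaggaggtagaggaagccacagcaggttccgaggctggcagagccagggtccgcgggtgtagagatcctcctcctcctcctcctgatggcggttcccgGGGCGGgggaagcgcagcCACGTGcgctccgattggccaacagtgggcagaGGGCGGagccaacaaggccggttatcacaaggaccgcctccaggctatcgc
Kcnj12: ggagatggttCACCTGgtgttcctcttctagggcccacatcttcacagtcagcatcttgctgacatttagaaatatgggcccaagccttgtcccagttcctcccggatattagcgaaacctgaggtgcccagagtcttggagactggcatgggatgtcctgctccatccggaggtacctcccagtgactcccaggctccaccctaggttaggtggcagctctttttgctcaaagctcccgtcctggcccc
Kcnd2: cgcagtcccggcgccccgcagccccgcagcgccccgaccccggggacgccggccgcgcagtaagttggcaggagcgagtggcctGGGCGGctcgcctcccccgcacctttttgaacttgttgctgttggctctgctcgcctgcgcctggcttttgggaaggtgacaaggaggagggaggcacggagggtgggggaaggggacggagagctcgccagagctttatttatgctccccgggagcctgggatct
Kcnip2: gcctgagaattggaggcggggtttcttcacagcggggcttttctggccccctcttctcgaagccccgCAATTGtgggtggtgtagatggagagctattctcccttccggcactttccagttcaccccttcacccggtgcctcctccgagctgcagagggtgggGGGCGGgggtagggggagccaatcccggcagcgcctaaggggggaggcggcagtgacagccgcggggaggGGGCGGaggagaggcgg

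These windows lie at chr2:55435720-55435969 (Kcnj3, plus strand), chr9:32344345-32344594 (Kcnj5, minus strand), chr11:111065914-111066163 (Kcnj2, plus strand), chr11:61065554-61065803 (Kcnj12, plus strand), chr6:21215096-21215345 (Kcnd2, plus strand) and chr19:45816064-45816313 (Kcnip2, minus strand). Windows were matched for 51 of the 71 channel genes. Of the 51, 24 (47.1%) held the GC box, against 32.7% of all 32851 windows of the table cut to the same 250 bases, and 34 (66.7%) held the E-box, against 66.2%. TATAAA was found in 3 (5.88%, against 12.4%), the Iroquois palindrome ACANNTGT, each copy of which also holds an E-box, in 1 (1.96%, against 6.31%), and AAGGTCA, the element bound by estrogen-related receptors, in 2 (3.92%, against 4.08%). The median GC content was 61.6% in the channel windows and 52.4% in all windows. Each channel gene entered with 1 window, and that of Kcnh2 lay 22013 bases from its GENCODE start. The comparison took every window of the table, with several for some genes, and was not limited to genes measured in these hearts. These shares and medians thus set unlike groups of windows side by side, and a difference between channel genes and other genes was not tested. A match of letters is a description and shows no bound factor. Among the 6 printed windows Kcnj2 held the E-box in the form CACGTG, and Kcnd2 held 0 E-boxes.

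A larger share of the channel genes than of all genes had lower values in CS-Mpc2-/-. The log2 difference was negative for 47 of the 71 channel genes, beside 5504 of all 12072 genes. Of these 47, 24 were potassium channel genes, which made up 35 of the 71. That the channel genes differ from other genes was not tested. With all 6 libraries, limma called 0 channel genes higher and 0 lower at a Benjamini-Hochberg adjusted p under 0.05 over all genes, as it did for the whole table (percent called 0.0). At an unadjusted p under 0.05, 18 channel genes were lower and 8 higher, which is 25.4% and 11.3% of them, beside 5.43% and 8.08% of all genes. The authors' deposited table, whose p-values are unadjusted, had 6 channel genes under 0.05 (8.45%, beside 6.18% of all genes). Of the 71 channel genes 5 were lower and 1 higher by that measure, beside 310 lower and 436 higher of all 12072 genes. The 3 values of one group lay wholly below those of the other for 13 channel genes in CS-Mpc2-/- (18.3%, beside 6.48% of all genes) and wholly above for 4 (5.63%, beside 8.01%). The median log2 difference was -0.27 over the 71 genes and 0.041 over all genes.

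Without fl/fl replicate 3, limma called 17 channel genes lower (23.9%, beside 4.4% of all genes) and 5 higher (7.04%, beside 6.51%). Of these 22 genes 12 had no overlap between the groups over all 6 libraries, and fl/fl replicate 3 itself was nearer the CS-Mpc2-/- mean for 18. With replicate 3 of both groups left out, 19 were lower (26.8%, beside 5.3%) and 6 higher (8.45%, beside 7.24%), and 20 of the 22 were called again. With array quality weights, which give a library that stands apart less weight, 10 were lower (14.1%, beside 1.84%) and 4 higher (5.63%, beside 2.66%), all of them among the 22. Leaving out any single library other than fl/fl replicate 3 gave 0 calls in either direction, over the channel genes and over all genes. The calls below therefore rest on fl/fl replicates 1 and 2, and on leaving out a library chosen for its values.

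**Figure D1:**
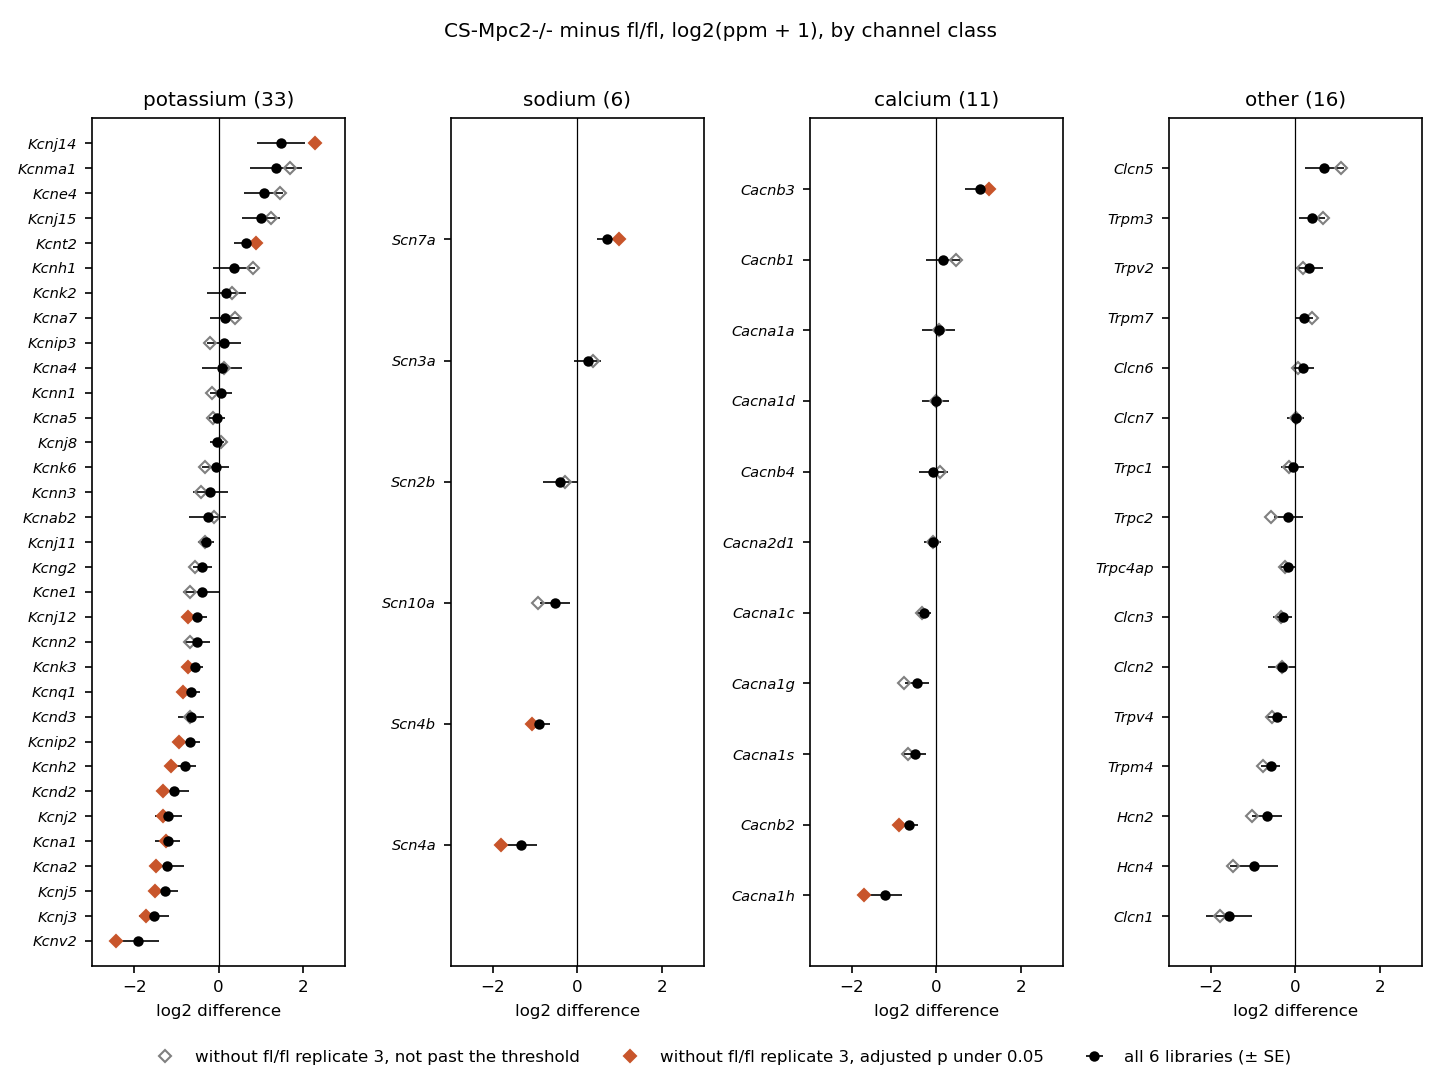
Difference between CS-Mpc2-/- and fl/fl for 66 of the 71 channel genes, on the log2(ppm + 1) scale, by class. Black points with bars give the estimate and SE with all 6 libraries, and diamonds the estimate without fl/fl replicate 3, filled where limma's adjusted p was under 0.05 (16 lower, 4 higher). Most potassium channel genes lie left of 0, and Kcnv2 lies farthest left on this scale.

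Potassium channel genes had a median log2 difference of -0.39, with 24 of the 35 negative and 11 positive. Of all 12072 genes, 5504 were negative and 6568 positive. Without fl/fl replicate 3 the median of the potassium channel genes was -0.56, with 13 of the 35 called lower and 2 higher. In that fit 531 of all 12072 genes were called lower and 786 higher. Their summed coverage per length was 432, 465 and 322 ppm per kb in fl/fl replicates 1 to 3 and 281, 292 and 293 in CS-Mpc2-/- replicates 1 to 3. All 3 CS-Mpc2-/- sums were below all 3 fl/fl sums, and fl/fl replicate 3 was the lowest of its group.

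Among the inward rectifiers, 4 genes of the G-protein-gated channel and of the resting potential fell without fl/fl replicate 3, and the 2 pore genes of the ATP-sensitive channel passed the test in neither fit. Kcnj3 (ENSMUSG00000026824.11, chromosome 2 from 55435970 to 55598145, plus strand), which encodes Kir3.1, a subunit of the acetylcholine-activated potassium channel opened by G-protein beta-gamma subunits, had 64.6, 52.4 and 38.7 ppm in fl/fl and 18, 8.92 and 30.1 ppm in CS-Mpc2-/-. Every fl/fl library was above every CS-Mpc2-/- library. Kcnj5 (ENSMUSG00000032034.6, chromosome 9 from 32314707 to 32344350, minus strand), which encodes the partner subunit Kir3.4, had 81.1, 90.6 and 50.3 ppm in fl/fl and 21.6, 25.2 and 46.4 in CS-Mpc2-/-, again with no overlap, though replicates 3 of the groups lay close together. The log2 difference of Kcnj3 was -1.52 ± 0.35 (SE, limma adjusted p = 0.220) with all 6 libraries. Without fl/fl replicate 3, Kcnj3 fell by 1.72 ± 0.36 (adjusted p = 0.00838). For Kcnj5 the difference was -1.26 ± 0.29 (adjusted p = 0.220), and without fl/fl replicate 3 it fell by 1.51 ± 0.27 (adjusted p = 0.00349). These subunits are best known from atrial and nodal cells, and in mice they are also transcribed in the ventricle. Of 6 atrial markers 2 were measured, and both were higher in CS-Mpc2-/- on average, though Nppa is also known to be switched on in the stressed ventricle. The levels were Nppa at 197, 175 and 7656 ppm in fl/fl and 7834, 10961 and 6696 in CS-Mpc2-/-, and Dkk3 at 4.14, 11.6 and 24.6 ppm in fl/fl and 37.0, 49.1 and 20.9 in CS-Mpc2-/-, and the part of atrial tissue in the Kcnj3 and Kcnj5 values was not tested.

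Kcnj2 (ENSMUSG00000041695.2, chromosome 11 from 111066164 to 111076821, plus strand), which encodes Kir2.1, the main carrier of the current that sets the ventricular resting potential, had 75.7, 92.4 and 65.3 ppm in fl/fl and 28.8, 20.3 and 62.1 in CS-Mpc2-/-. CS-Mpc2-/- replicates 1 and 2 were far below every fl/fl library, while replicate 3, whose Mpc2 goes against its label, was just below fl/fl replicate 3. The log2 difference was -1.19 ± 0.32 (adjusted p = 0.220), Kcnj2 fell by 1.31 ± 0.34 without fl/fl replicate 3 (adjusted p = 0.0249), and the adjusted p without replicate 3 of both groups was 0.000190. Kcnj12, which encodes Kir2.2, the other subunit of that current, had 72.6, 67.3 and 44.2 ppm in fl/fl and 37.4, 50.8 and 39.1 in CS-Mpc2-/-. Its groups overlapped because fl/fl replicate 3 was below CS-Mpc2-/- replicate 2, and it fell by 0.72 ± 0.20 without fl/fl replicate 3 (adjusted p = 0.0363, 0.358 with all 6 libraries). Kcnj14, which encodes Kir2.4, went the other way, at 0.506, 0.949 and 7.82 ppm in fl/fl and 8.42, 9.08 and 5.01 in CS-Mpc2-/-. It rose by 2.28 ± 0.41 without fl/fl replicate 3 (adjusted p = 0.00357), but fl/fl replicate 3 lay among the CS-Mpc2-/- values and the level was low throughout. Over all alternatives the adjusted p ran from 5.19e-05 to 0.793 for these 5 genes.

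ATP-sensitive channels are opened by a fall in cellular ATP and couple metabolism to excitability. Kcnj8, which encodes Kir6.1, had 60.3, 64.6 and 77.5 ppm in fl/fl and 62.2, 70.9 and 63.7 in CS-Mpc2-/-, a log2 difference of -0.034 ± 0.17 (adjusted p = 0.950) that changed sign without fl/fl replicate 3 (0.069). Kcnj11, which encodes Kir6.2, the pore of the ventricular channel, had 78.7, 88.3 and 79.7 ppm in fl/fl and 62.1, 81.9 and 58.2 in CS-Mpc2-/-, a log2 difference of -0.30 ± 0.18 (adjusted p = 0.492) that was negative in every alternative. The groups overlapped for both genes, and the difference between these genes and the other inward rectifiers was not tested. The sulfonylurea receptor gene Abcc9, the regulatory partner of these pores and a member of the list of channel-associated proteins, had 890.1, 827 and 493 ppm in fl/fl and 339.8, 304 and 473 in CS-Mpc2-/-. It fell by 1.23 ± 0.19 without fl/fl replicate 3 (limma adjusted p = 0.00130), and its difference was -0.96 ± 0.24 with all 6 libraries (adjusted p = 0.220). Abcc9 is also a pericyte marker, as Kcnj8 is known to be in mouse tissues. All 6 pericyte markers were measured. The 4 others summed to 717, 675 and 687 ppm in fl/fl and 704, 693 and 641 in CS-Mpc2-/-, with overlap, so the sum of all 6, 1257 to 1667 ppm in fl/fl and 1069 to 1178 in CS-Mpc2-/-, is lower in CS-Mpc2-/- through Abcc9 itself. Their part in these values was not tested. Kcnj15, which encodes Kir4.2, had 0.851, 3.93 and 3.95 ppm in fl/fl and 8.51, 6.69 and 4.01 in CS-Mpc2-/-, with no overlap but a gap between replicates 3 that is small beside the spread within each group (adjusted p = 0.358). That gap was lost with upper quartile or median-of-ratios scaling.

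**Figure D2:**
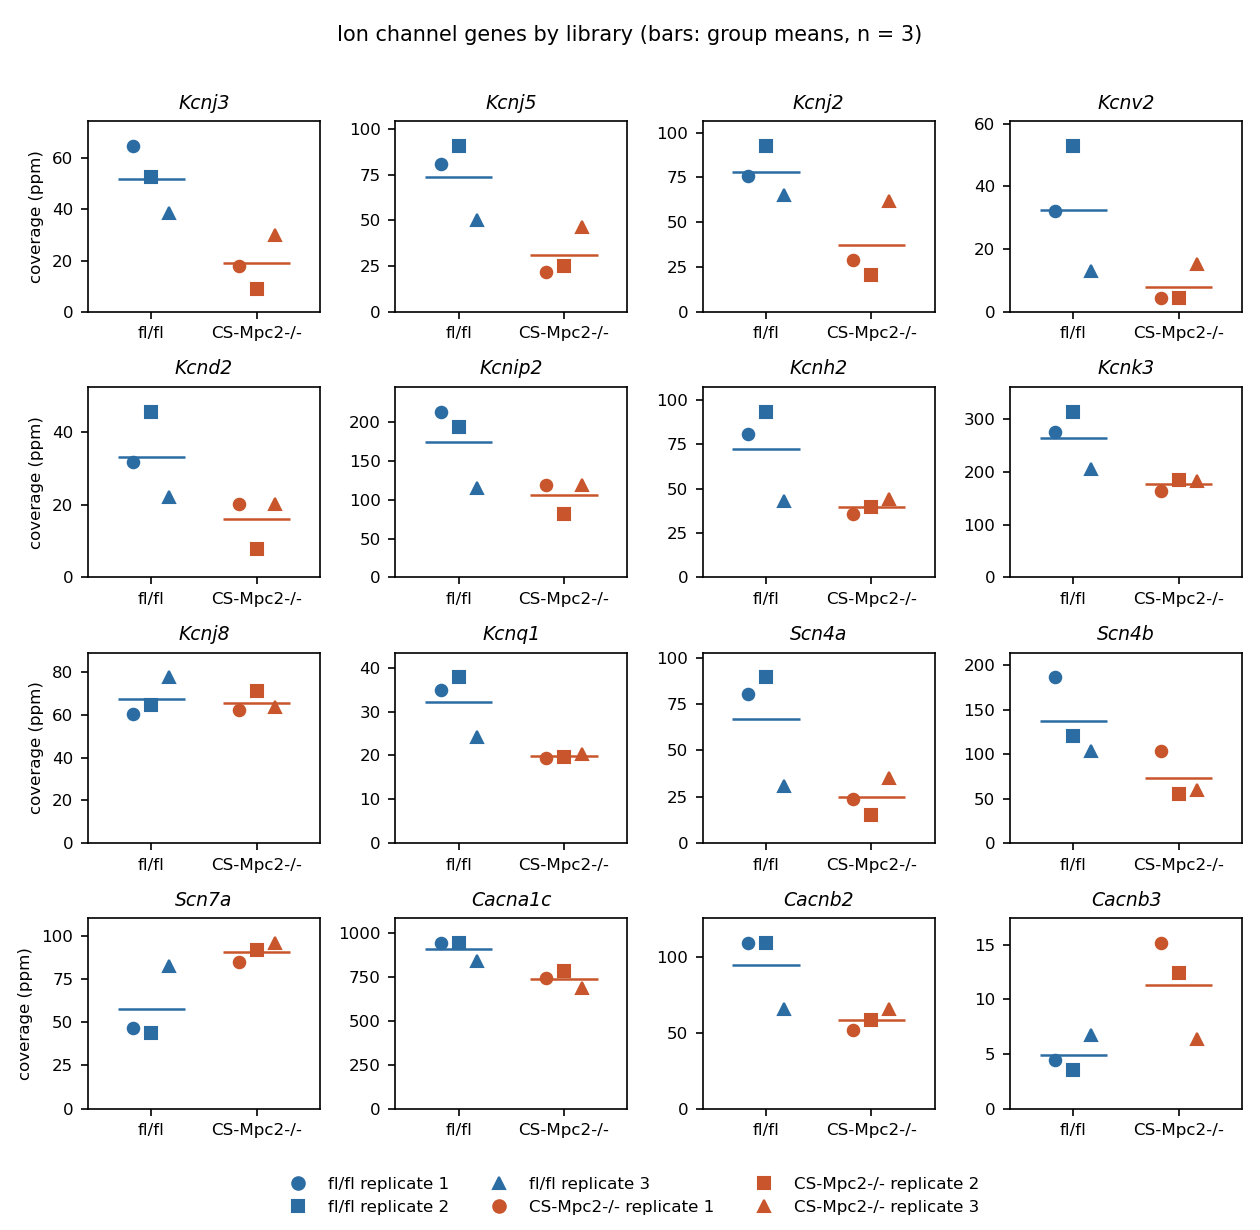
Coverage in ppm of 16 channel genes in each of the 6 libraries, with symbols for the replicate number and bars for the group means (n = 3). Kcnj3, Kcnj5, Kcnj2, Kcnd2, Kcnk3, Kcnq1, Scn4b and Cacna1c lie wholly lower in CS-Mpc2-/- and Scn7a, at the scaling shown, wholly higher, while fl/fl replicate 3 (blue triangle) lies at or near the CS-Mpc2-/- values for Kcnv2, Kcnip2, Kcnh2, Scn4a and Cacnb2.

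Among voltage-gated pores, the genes of the fast transient outward current were lower. Kcnd2 (ENSMUSG00000060882.5, chromosome 6 from 21215503 to 21729805, plus strand), which encodes Kv4.2, had 31.7, 45.5 and 22.0 ppm in fl/fl and 20.1, 7.75 and 20.1 in CS-Mpc2-/-, and every CS-Mpc2-/- library was below every fl/fl library. It fell by 1.31 ± 0.35 on the log2 scale without fl/fl replicate 3 (adjusted p = 0.0291), and the difference was -1.06 ± 0.35 with all 6 (adjusted p = 0.268). Kcnd3, which encodes the related pore Kv4.3, was lower per length and had 9.21, 12 and 10.01 ppm in fl/fl and 7.53, 7.88 and 3.86 in CS-Mpc2-/-, with no overlap but no call in either fit (adjusted p = 0.373 and 0.235). Kcnip2 (ENSMUSG00000025221.15, chromosome 19 from 45791839 to 45816061, minus strand), which encodes KChIP2, the calcium-binding partner that carries Kv4 pores to the cell surface, had 214, 194 and 116 ppm in fl/fl and 119, 81.5 and 119.7 in CS-Mpc2-/-. Here fl/fl replicate 3 lay among the CS-Mpc2-/- libraries, and Kcnip2 fell by 0.94 ± 0.20 without it (adjusted p = 0.00831, 0.280 with all 6). Kcna4, which encodes Kv1.4, the pore of the slow transient current, had values of 5.69, 0.776 and 2.87 ppm in fl/fl and 2.72, 3.47 and 2.28 in CS-Mpc2-/-, all of them low, and its estimate changed sign with the pseudocount and with single libraries. The adjusted p of Kcnd2, Kcnd3 and Kcnip2 ran from 0.00263 to 0.793 over all alternatives.

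Kcnv2 (ENSMUSG00000047298.3, chromosome 19 from 27322588 to 27337179, plus strand) had the most negative difference of the 71 genes on the log2(ppm + 1) scale. With a pseudocount of 0.1 ppm it was -2.06, and Clcn1, which was near 0 in 1 library, was lower at -2.80. It encodes Kv8.2, a silent subunit that forms no channel alone and changes the gating of other pores. It had 32.0, 52.8 and 12.9 ppm in fl/fl and 4.48, 4.29 and 15.2 in CS-Mpc2-/-, and replicate 3 of fl/fl was below CS-Mpc2-/- replicate 3. The log2 difference was -1.91 ± 0.50 (adjusted p = 0.220), and it fell by 2.44 ± 0.42 without fl/fl replicate 3 (adjusted p = 0.00272). Kcng2, which encodes Kv6.2, another silent subunit, had 110.0, 137 and 85.8 ppm in fl/fl and 76.0, 111 and 67.6 in CS-Mpc2-/-, with overlapping groups (adjusted p = 0.470, and 0.121 without fl/fl replicate 3). Kcna5, which encodes Kv1.5, the ultrarapid delayed rectifier, had 70.9, 80.3 and 60.2 ppm in fl/fl and 67.1, 81.8 and 58.4 in CS-Mpc2-/-. Its group means were nearly equal (log2 difference -0.03 ± 0.19, adjusted p = 0.960), and the sign changed when fl/fl replicate 2 or CS-Mpc2-/- replicate 3 was left out. The adjusted p of Kcnv2 ran from 3.69e-05 to 0.769 over all alternatives.

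Kcnh2 and Kcnq1 encode the pores of the rapid and slow delayed rectifiers, whose human counterparts underlie inherited long QT syndromes. Kcnh2 had 80.7, 93.1 and 42.9 ppm in fl/fl and 35.6, 39.4 and 44.0 in CS-Mpc2-/-, so the CS-Mpc2-/- libraries and fl/fl replicate 3 formed a narrow band below fl/fl replicates 1 and 2. It fell by 1.11 ± 0.19 without fl/fl replicate 3 (adjusted p = 0.00275, 0.264 with all 6). Kcnq1 had 34.9, 37.8 and 24.1 ppm in fl/fl and 19.5, 19.7 and 20.4 in CS-Mpc2-/-, with no overlap, and fell by 0.84 ± 0.22 in that fit (adjusted p = 0.0261, 0.269 with all 6). An antisense gene, Kcnq1ot1, overlaps exons of Kcnq1, and without a stated strand setting their coverage cannot be told apart. Kcne1, the single-span partner of the Kcnq1 pore, had 4.33, 3.03 and 1.62 ppm in fl/fl and 1.51, 1.18 and 3.45 in CS-Mpc2-/-, low and overlapping. Kcne4, a related single-span subunit that dampens Kv currents, had 1.73, 7.94 and 10 ppm in fl/fl and 17.3, 13.2 and 8.62 in CS-Mpc2-/- (adjusted p = 0.0529 without fl/fl replicate 3 and 0.0333 without replicate 3 of both groups). The adjusted p ran from 0.00107 to 0.780 for Kcnh2, Kcnq1 and Kcne4 over all alternatives.

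Kcna1 and Kcna2, which encode Kv1.1 and Kv1.2, pores better known from nerve, were low in both groups and lower in CS-Mpc2-/-. Kcna1 had 9.51, 8.41 and 8.08 ppm in fl/fl and 2.85, 3.66 and 3.1 in CS-Mpc2-/-, with a tight and separate set of values in each group (log2 difference -1.20 ± 0.30, adjusted p = 0.220). Kcna2 had 14.5, 5.20 and 4.62 ppm in fl/fl and 2.22, 2.25 and 3.07 in CS-Mpc2-/-. The value of fl/fl replicate 1 stood far above the rest, and the groups did not overlap. Without fl/fl replicate 3, Kcna1 fell by 1.25 ± 0.35 (adjusted p = 0.0361) and Kcna2 by 1.49 ± 0.43 (adjusted p = 0.0411), with 0.0361 to 0.769 for both over all alternatives. Kcnk3, which encodes the background channel TASK-1, had 274, 313 and 206 ppm in fl/fl and 164, 183 and 182 in CS-Mpc2-/-, with no overlap. It fell by 0.73 ± 0.16 without fl/fl replicate 3 (adjusted p = 0.0123, 0.264 with all 6, 0.00577 to 0.769 over all alternatives).

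Of the 5 calcium- or sodium-activated potassium channel genes, all low, 3 had positive and 2 negative differences. Kcnt2, which encodes the sodium-activated channel Slick, had 8.28, 10.4 and 16.3 ppm in fl/fl and 17.1, 19.2 and 18 in CS-Mpc2-/-, and it rose by 0.89 ± 0.26 without fl/fl replicate 3 (adjusted p = 0.0449, 0.331 with all 6, 0.0449 to 0.769 over all alternatives). The gap between its groups was narrow, since fl/fl replicate 3 was just below CS-Mpc2-/- replicate 1, and it was lost with upper quartile scaling. Kcnn2, which encodes the small-conductance channel SK2, had 9.42, 8.27 and 5.84 ppm in fl/fl and 4.76, 4.47 and 6.22 in CS-Mpc2-/-, with overlap. Kcnma1, which encodes the large-conductance pore of smooth muscle, was listed in fl/fl replicate 1 at the smallest step of that library only, at 2.21 and 2.68 ppm in the other fl/fl libraries and at 8.65, 7.54 and 1.43 in CS-Mpc2-/- (adjusted p = 0.366, 0.0157 without replicate 3 of both groups). Its values in CS-Mpc2-/- replicates 1 and 2 were above all others. The summed level of the 5 smooth muscle markers was 313 to 412 ppm in fl/fl and 289 to 372 in CS-Mpc2-/-, and their part in the Kcnma1 values was not tested. Kcnn1 and Kcnn3, the other SK pores, lay between 2.63 and 18.2 ppm over the 6 libraries and overlapped. Among the low potassium channel genes Kcna7, Kcnh1, Kcnab2, Kcnip3, Kcnk2 and Kcnk6, no library exceeded 11.1 ppm. All 6 overlapped between the groups, and their adjusted p ran from 0.783 to 0.948 with all 6 libraries.

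Sodium channel genes split in direction, with 4 of the 8 positive and 4 negative. Scn4a (ENSMUSG00000001027.7, chromosome 11 from 106318592 to 106353288, minus strand), which encodes Nav1.4, the skeletal muscle pore, had 80.6, 89.4 and 30.6 ppm in fl/fl and 23.7, 15.3 and 34.9 in CS-Mpc2-/-, and replicate 3 of fl/fl lay among the latter. Without that library Scn4a fell by 1.82 ± 0.28 (adjusted p = 0.00114, 0.220 with all 6, 5.96e-05 to 0.769 over all alternatives). The skeletal fast myosin genes Myh1 and Myh4 were highest in fl/fl replicate 1. Myh1 had 55.1, 33.4 and 11.2 ppm in fl/fl and 21.1, 21.2 and 15.3 in CS-Mpc2-/-, and Myh4 had 83.7, 52.1 and 11.7 ppm in fl/fl and 27.1, 34.9 and 17.6 in CS-Mpc2-/-. Without fl/fl replicate 3, Myh1 fell by 1.13 ± 0.26 (limma adjusted p = 0.0147, 0.609 with all 6). Myh4 fell by 1.34 ± 0.28 in that fit (adjusted p = 0.00901, 0.673 with all 6). Acta1, the skeletal actin gene, which cardiomyocytes also express, ran the other way with 45.1, 25.0 and 68.2 ppm in fl/fl and 130.4, 141 and 124 in CS-Mpc2-/-, and rose by 1.94 ± 0.23 without fl/fl replicate 3 (adjusted p = 0.000118). These 3 of 5 skeletal muscle markers summed to 91.1 to 184 ppm in fl/fl and 157 to 197 in CS-Mpc2-/-, and Tnnt3 and Mylpf were not analysed here. Their part in the Scn4a values was not tested.

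Scn4b, which encodes an auxiliary beta subunit that sets the gating of the sodium pores, had 186, 119.9 and 104 ppm in fl/fl and 103, 55.2 and 59.9 in CS-Mpc2-/-, with fl/fl replicate 3 just above CS-Mpc2-/- replicate 1, and it fell by 1.09 ± 0.26 without fl/fl replicate 3 (adjusted p = 0.0173, 0.224 with all 6). Scn7a, which encodes the sodium sensor Nax, a gene of Schwann cells and other non-myocytes, had 46.6, 43.8 and 82.8 ppm in fl/fl and 84.8, 92.0 and 96.0 in CS-Mpc2-/-. All 3 CS-Mpc2-/- values were above fl/fl, with fl/fl replicate 3 just below them, and Scn7a rose by 0.99 ± 0.18 without fl/fl replicate 3 (adjusted p = 0.00357, 0.264 with all 6). The groups overlapped for Scn7a with upper quartile or median-of-ratios scaling. The adjusted p of Scn4b and Scn7a ran from 0.00353 to 0.769 over all alternatives. Beside Scn7a, the only other measured Schwann cell and neuron marker, Uchl1, had 2.46, 9.40 and 21.5 ppm in fl/fl and 16.0, 22.9 and 20.4 in CS-Mpc2-/-, and the other 5 listed markers were not analysed here. All 8 fibroblast markers had positive differences, with 6 called higher without fl/fl replicate 3 and a summed level of 844 to 1369 ppm in fl/fl and 1738 to 4799.9 in CS-Mpc2-/-. Their part in the Scn7a values was not tested. Scn10a, which encodes the sensory neuron pore Nav1.8, had 13.4, 17.1 and 6.06 ppm in fl/fl and 8.77, 7.63 and 6.21 in CS-Mpc2-/-, with overlap (adjusted p = 0.518, and 0.0600 without fl/fl replicate 3). Scn3a, a neuronal pore, and Scn2b, a beta subunit, lay between 1.04 and 6.48 ppm in all libraries and overlapped.

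Among calcium channel genes, the L-type pore Cacna1c had 942, 939 and 842 ppm in fl/fl and 743, 784 and 687 in CS-Mpc2-/-. Its values did not overlap between the groups and the CS-Mpc2-/- mean was 81.3% of the fl/fl mean, but it was called in neither fit (log2 difference -0.30 ± 0.16, adjusted p = 0.442, and 0.181 without fl/fl replicate 3). Cacnb2 (ENSMUSG00000057914.15, chromosome 2 from 14603088 to 14987908, plus strand), which encodes the main beta subunit of the cardiac L-type channel, had 109, 109 and 65.7 ppm in fl/fl and 52.0, 58.5 and 65.7 in CS-Mpc2-/-, and replicate 3 of fl/fl was level with CS-Mpc2-/- replicate 3. It fell by 0.89 ± 0.18 without fl/fl replicate 3 (adjusted p = 0.00776, 0.268 with all 6). Cacnb3, another beta subunit gene, had 4.42, 3.49 and 6.73 ppm in fl/fl and 15.2, 12.4 and 6.40 in CS-Mpc2-/-, and it rose by 1.25 ± 0.37 in that fit (adjusted p = 0.0464, 0.270 with all 6). Both replicates 3 had nearly the same Cacnb3 level. Cacna2d1, the alpha-2-delta subunit that brings the pore to the membrane, had 154, 167 and 162 ppm in fl/fl and 133, 122 and 214 in CS-Mpc2-/-, where replicate 3 stood above all other libraries and replicates 1 and 2 below them.

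T-type calcium channels are abundant in the fetal ventricle and in nodal cells of the adult. Cacna1h, which encodes Cav3.2, had 18.1, 19.7 and 5.92 ppm in fl/fl and 6.23, 4.21 and 4.94 in CS-Mpc2-/-, and replicate 3 of fl/fl lay among the CS-Mpc2-/- values. It fell by 1.71 ± 0.31 without fl/fl replicate 3 (adjusted p = 0.00316, 0.264 with all 6), and its exons overlap the gene Tpsg1 on the opposite strand. Cacna1g, which encodes Cav3.1, had 39.2, 43.6 and 21.1 ppm in fl/fl and 32.5, 22.4 and 18.7 in CS-Mpc2-/-, with overlap. Cacna1s, the skeletal muscle L-type pore, had 16.3, 17.0 and 11.3 ppm in fl/fl and 11.2, 7.88 and 11.5 in CS-Mpc2-/-. The adjusted p of Cacnb2, Cacnb3 and Cacna1h ran from 0.00234 to 0.769 over all alternatives. Cacna1a, Cacna1d, Cacnb1 and Cacnb4, pores and beta subunits better known from neurons, pacemaker cells and skeletal muscle, lay between 2.71 and 16.1 ppm and overlapped. The class median was -0.089 on the log2 scale, with 8 of the 11 negative, and its summed level per length was 135, 137 and 116 ppm per kb in fl/fl and 105, 106 and 108 in CS-Mpc2-/-. These sums did not overlap between the groups, and Cacna1c supplied 48.3% to 56.1% of them.

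The remaining 17 genes had a median log2 difference of -0.17, with 11 negative, and 0 were called with all 6 libraries or without fl/fl replicate 3. The pacemaker channel genes varied widely among fl/fl libraries. Hcn4 had 5.33, 19.1 and 3.00 ppm in fl/fl and 3.07, 1.34 and 5.94 in CS-Mpc2-/-, and Hcn2 had 16.6, 20.1 and 7.81 ppm in fl/fl and 12.3, 7.66 and 6.12 in CS-Mpc2-/- (adjusted p = 0.461 and 0.437). Hcn4 was high in fl/fl replicate 2 alone, and it fell without replicate 3 of both groups (log2 difference -1.87, adjusted p = 0.0362, 0.0362 to 0.895 over all alternatives). Other conduction system markers beside Hcn4 and Cacna1g were Tbx3, with 22.3, 13.7 and 20.05 ppm in fl/fl and 13.0, 13.7 and 12.2 in CS-Mpc2-/-, Cntn2, with 0.991, 5.45 and 1.83 ppm in fl/fl and 0.975, 3.37 and 0.645 in CS-Mpc2-/-, and Tbx18, with 5.48, 11.2 and 10.7 ppm in fl/fl and 10.5, 8.21 and 8.50 in CS-Mpc2-/-. These 3 summed to 28.8, 30.4 and 32.6 ppm in fl/fl and 24.5, 25.3 and 21.3 in CS-Mpc2-/-, Shox2 and Isl1 were not analysed here, and their part in the Hcn4 values was not tested.

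Clcn1, the chloride channel of skeletal muscle, had 3.16, 10.2 and 3.36 ppm in fl/fl. In CS-Mpc2-/- it was listed at the smallest step alone in replicate 1, and at 1.09 and 2.68 ppm in the others. The groups did not overlap, but the level was low in every library and the gene was called only without replicate 3 of both groups (adjusted p = 0.278 with all 6, 0.0298 without these 2 libraries). Clcn3, an endosomal chloride-proton exchanger, had 60.9, 63.1 and 55.3 ppm in fl/fl and 39.8, 40.6 and 70.3 in CS-Mpc2-/-, and its CS-Mpc2-/- replicate 3 was the highest of all 6 libraries. It was called lower without replicate 3 of both groups, close to the threshold (adjusted p = 0.0497, 0.583 with all 6). Clcn7, the lysosomal exchanger, had 48.8, 59.2 and 53.5 ppm in fl/fl and 66.2, 55.3 and 43.1 in CS-Mpc2-/-, with overlap. Trpm4, a calcium-activated cation channel of cardiomyocytes, had 32.3, 39.5 and 24.1 ppm in fl/fl and 25.2, 19.4 and 17.7 in CS-Mpc2-/- (log2 difference -0.59 ± 0.24, adjusted p = 0.319, and 0.0538 without fl/fl replicate 3). Trpm7, a cation channel fused to a kinase, had 78.0, 71.2 and 113 ppm in fl/fl and 83.4, 94.7 and 122 in CS-Mpc2-/-, with overlap. Trpv4, an osmosensitive and mechanosensitive channel, had 19.96, 17.2 and 14.0 ppm in fl/fl and 12.5, 11.8 and 12.6 in CS-Mpc2-/-, with no overlap (adjusted p = 0.437). Trpc1, a receptor-operated cation channel linked to hypertrophy in mice, had 10.8, 10.6 and 8.43 ppm in fl/fl and 8.09, 8.2 and 12.7 in CS-Mpc2-/-, with overlap. Clcn2, Clcn5, Clcn6, Trpm3 and Trpv2 lay between 0.711 and 15 ppm in all libraries and overlapped (adjusted p from 0.531 to 0.787). Trpc4ap, which is no channel, had 207, 132 and 146 ppm in fl/fl and 149, 152 and 122 in CS-Mpc2-/-. Its exons overlap the myosin gene Myh7b on the opposite strand, so its value may hold coverage of that gene. Kcnab1, Kcnmb1 and Trpc6 were not analysed here.

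**Figure D3:**
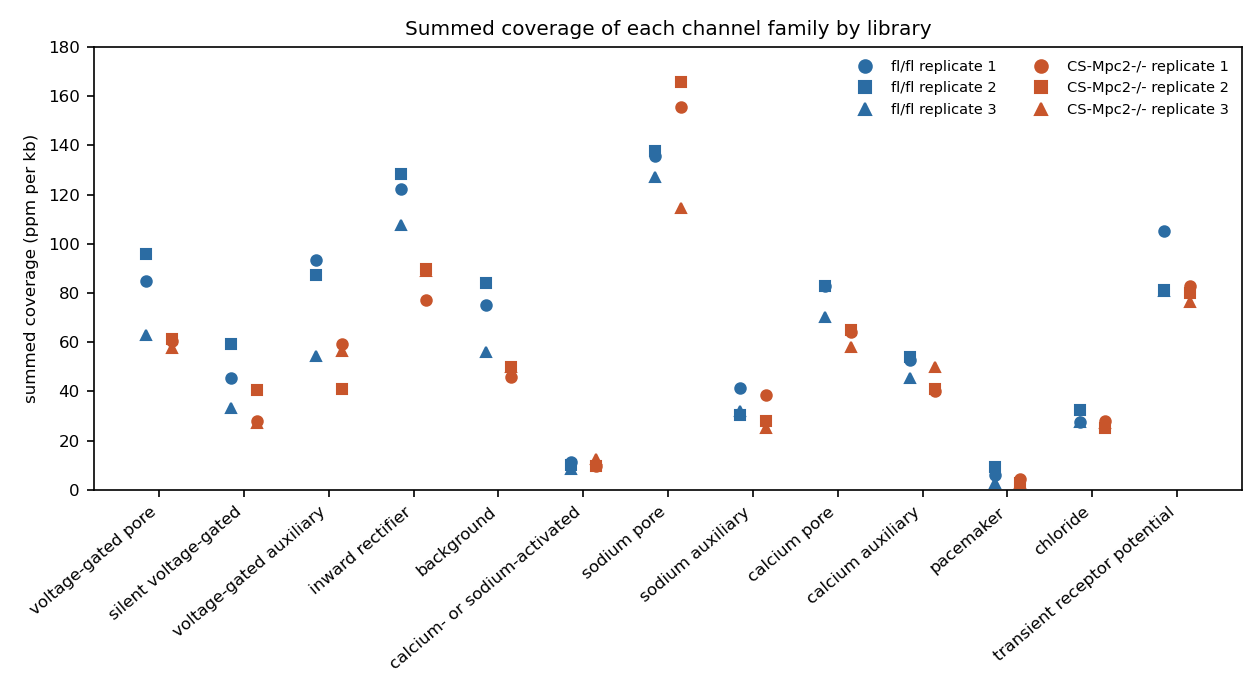
Summed coverage per kb of transcript for each channel family in each of the 6 libraries. The sums of voltage-gated pores, inward rectifiers, background channels and calcium pores lie lower in all 3 CS-Mpc2-/- libraries than in all 3 fl/fl libraries, while the other families overlap.

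Families were compared by their summed coverage per length. Inward rectifiers summed to 122, 128 and 107 ppm per kb in fl/fl replicates 1 to 3 and to 77.3, 89.9 and 89.1 in CS-Mpc2-/-, and voltage-gated pores to 84.9, 95.8 and 63.1 ppm per kb in fl/fl and 60.6, 61.4 and 57.6 in CS-Mpc2-/-. Background channels, of which Kcnk3 is the main one, summed to 75.1, 84.1 and 55.9 ppm per kb in fl/fl and 45.9, 50.0 and 50.1 in CS-Mpc2-/-. Calcium- and sodium-activated potassium channels summed to 11.4, 10.3 and 8.59 ppm per kb in fl/fl and 9.84, 9.71 and 12.7 in CS-Mpc2-/- and overlapped. Differences between families were not tested.

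Per length, Cacna1c had 69.0 ± 4.32 ppm per kb in fl/fl and 56.1 ± 3.67 in CS-Mpc2-/- (mean ± SD, n = 3 each), the highest level among the calcium channel genes. Among potassium channel genes Kcnip2, at 72.8 ± 21.5 and 44.6 ± 9.14 ppm per kb, and Kcnk3, at 69.4 ± 14.3 and 46.4 ± 2.82, were highest and did not differ beyond their spread within either group. Kcng2 came next at 39.5 ± 9.12 and 30.2 ± 8.26. The following 4, Kcnj8, Kcna5, Kcnj11 and Kcnj12, had means over the 6 libraries of 26.1, 24.4, 23.8 and 21.1 ppm per kb and overlapped each other. The transient outward partner Kcnip2 was thus well above the pores Kcnd2, at 6.42 ± 2.29 and 3.1 ± 1.38 ppm per kb, and Kcnd3, at 1.45 ± 0.202 and 0.896 ± 0.311. Scn4b supplied 16.2 ± 4.31% of the summed sodium channel level per length in fl/fl and 8.33 ± 2.48% in CS-Mpc2-/- (mean ± SD, n = 3 each). Among the other channels Trpm7 and Clcn7 were the highest after Trpc4ap, at 13.2 and 12.8 ppm per kb over the 6 libraries. Lengths are those of the longest coding transcript in GENCODE M21, which need not be the isoform of the heart.

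**Figure D4:**
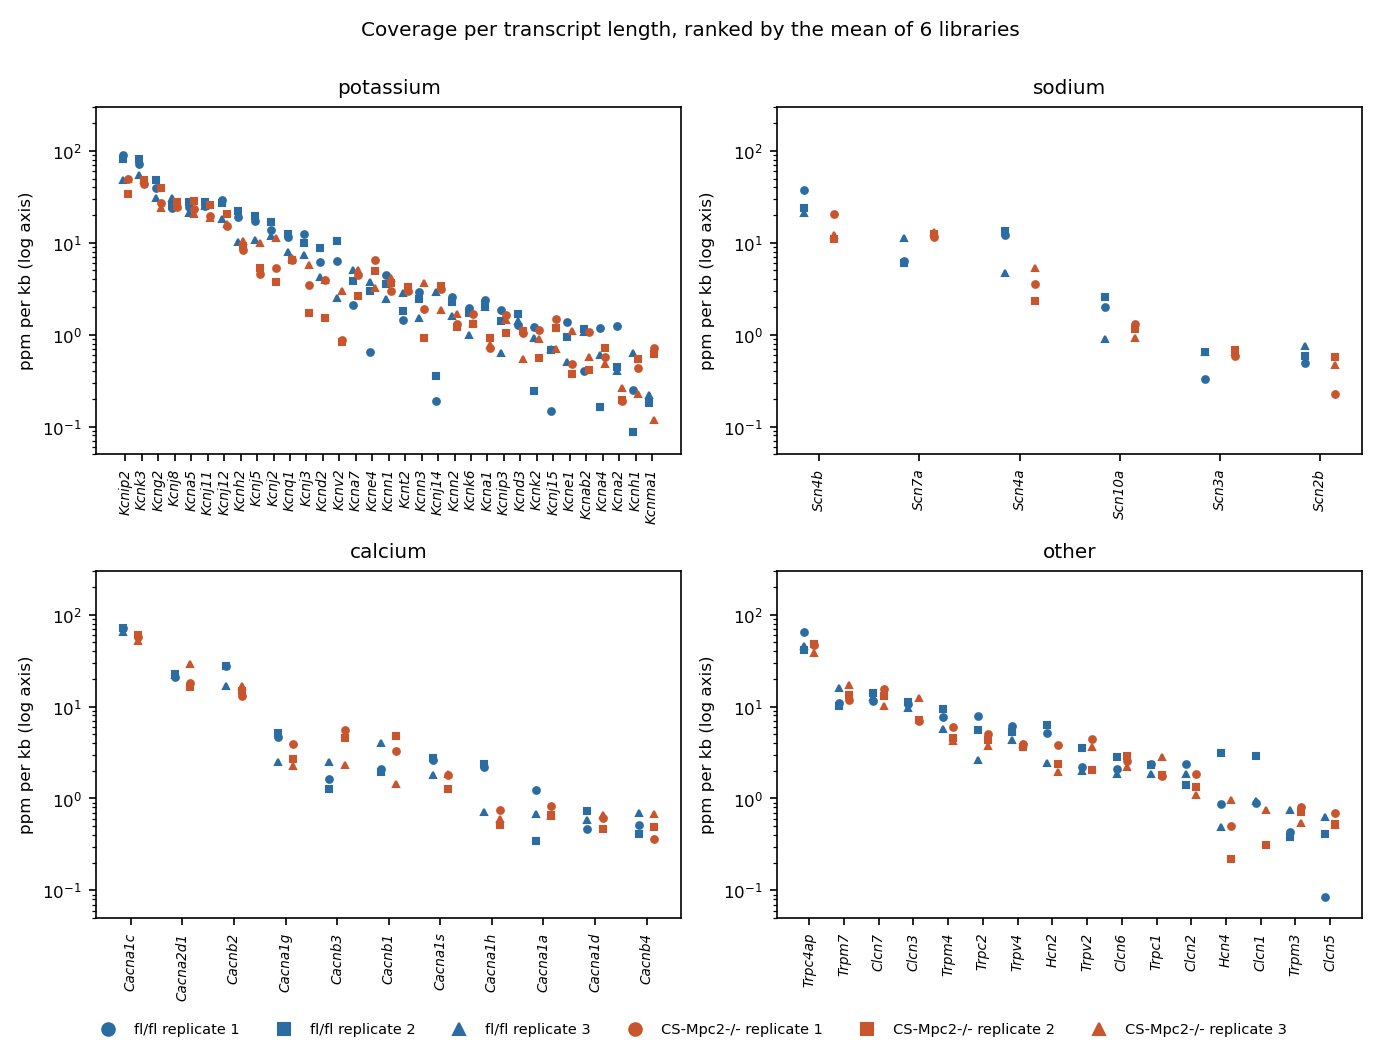
Coverage per kb of transcript of 66 channel genes in each of the 6 libraries, ranked within each class by the mean over libraries, on a log axis. Cacna1c stands well above the other calcium channel genes, and Kcnip2 and Kcnk3 lead the potassium channels. The libraries without coverage of Kcnma1 and Clcn1 lie below the axis.

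Genes that serve the channels without belonging to these families were counted by the same tests, and the difference between these lists and the channel genes was not tested. Without fl/fl replicate 3, 4.4% of all genes were called lower and 6.51% higher. Of 25 measured channel-associated proteins, 1 was lower (Abcc9, 4%) and 1 higher (4%) in that fit, with a median log2 difference over all 6 libraries of 0.048. The one that rose was Sorbs2, an adaptor protein of the Z-disc and intercalated disc, at 437, 463 and 972 ppm in fl/fl and 914, 1074 and 1000.3 in CS-Mpc2-/-. Among 19 transcription factors known to act on cardiac channel genes, 3 were lower (15.8%) and 1 higher (5.26%) in that fit (median -0.12 with all 6). Klf15, a repressor of hypertrophy that drives Kcnip2 in mice, had 118, 163 and 99.4 ppm in fl/fl and 54.4, 82.6 and 90.8 in CS-Mpc2-/-, and Tbx5, a T-box factor of heart development and conduction, had 31.6, 20.7 and 14.7 ppm in fl/fl and 8.15, 15 and 12.3 in CS-Mpc2-/-. Hopx, a homeodomain protein without DNA binding of its own, had 167, 205 and 72.2 ppm in fl/fl and 40.2, 43.5 and 84.9 in CS-Mpc2-/-. The one that rose, named after its value was seen, was Gata4, a zinc finger factor of heart development, with 147, 148 and 226 ppm in fl/fl and 258, 246 and 198 in CS-Mpc2-/- (log2 rise 0.66 ± 0.17, adjusted p = 0.0273). Of 18 pumps and exchangers 3 were lower and 3 higher (16.7% each way, median 0.059), and of 44 genes of other channel families 3 were lower (6.82%) and 4 higher (9.09%, median 0.019). With all 6 libraries 0 genes of these 4 lists were called, and at an unadjusted p under 0.05 they held 1, 3, 3 and 4 lower and 1, 1, 3 and 5 higher genes, respectively. The lower ones were 4%, 15.8%, 16.7% and 9.09% of the lists, beside 5.43% of all genes. The higher ones were 4%, 5.26%, 16.7% and 11.4%, beside 8.08%. In the second pair of lists Atp2a2, the calcium pump of the sarcoplasmic reticulum, had 6112, 6514 and 3659 ppm in fl/fl and 2785, 2225 and 4086 in CS-Mpc2-/-, and it fell by 1.1 ± 0.24 without fl/fl replicate 3 (adjusted p = 0.0105). Piezo2, a mechanically opened cation channel, had 1.56, 0.109 and 10.8 ppm in fl/fl and 17.0, 15.9 and 10.4 in CS-Mpc2-/-, and it rose by 3.17 ± 0.42 in the same fit (adjusted p = 0.000355). For both genes the value of fl/fl replicate 3 lay among or near those of CS-Mpc2-/-.

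Markers of the remaining cell types were counted as well. The 7 endothelial markers summed to 1286 to 1336 ppm in fl/fl and 1183 to 1486 in CS-Mpc2-/-, with 0 called in either fit. The 5 of 7 macrophage markers measured summed to 202 to 261 ppm in fl/fl and 272 to 336 in CS-Mpc2-/-, and 2 of them rose without fl/fl replicate 3. Their part in the channel values was not tested.

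Several values are limited by overlap of gene models. The longest coding transcript of 21 of the 71 channel genes overlaps exons of another annotated gene, in 20 cases only on the opposite strand. Among these 20 are Kcnj3, Kcnk3, Kcnq1, Kcnt2, Cacnb2 and Cacna1h, all called without fl/fl replicate 3. Without a stated strand setting, their coverage and that of the other gene cannot be told apart. The exception, Trpc2, shares exons with read-through transcripts of its neighbour Xndc1, so its values, 22.7, 16.1 and 7.53 ppm in fl/fl and 14.4, 12.5 and 10.7 in CS-Mpc2-/-, are uncertain.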

How the data were processed

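Total RNA from about 25 mg of left ventricle was pooled from 2 hearts per library, depleted of ribosomal RNA and sequenced on an Ion Torrent Proton, per the labels' protocols. The authors deposited 1 table, whose per-library values behave, as read from the values, as a coverage signal brought by the authors to nearly equal totals. The ratio of group means and the unadjusted p-value in the table are the authors' deposited values. The submitters' processing notes name the build mm10. Aligner, counting step and strand setting are not given in these sources. Coverage grows with transcript length, and intervals for counting error cannot be given from it.

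Here each value was divided by its library total, expressed in ppm and tested as log2(ppm + 1) with limma 3.58.1 (trend, R 4.3.3) on the 12072 genes, all of which had a mean over 1 ppm, with Benjamini-Hochberg adjustment and a threshold of 0.05. The log2 scale understates the change of low genes. The design foresaw this test for values that are not counts. The libraries are separate pools of mice, so 3 against 3 samples enter the fit. Same-numbered libraries of the groups were checked for shared deviations, and the replicate numbers were not used as pairs. Alternatives changed the scaling, the filter, the pseudocount, the model and the libraries left out. Members and lists were chosen with earlier results of these data known. Genes were described by a fixed rule (textbook channels of the ventricle, the smallest p and the highest level in each class, and genes called when 1 library was left out); other members were added after their values were seen. Transcript lengths and positions come from GENCODE M21 on mm10 and promoter windows from RefSeq. Values of 5 of the 71 genes are not reported here by name, though counts and sums include them.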

Additional observations from a re-analysis of the deposited data

How the results depend on the processing

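With all 6 libraries, 0 genes were called under each alternative scaling, filter, pseudocount, prior and length correction, and in the fit with the replicate block (0 higher and 0 lower). Same-numbered libraries did not deviate together (correlations 0.075, -0.038 and -0.073), and the numbers were not used as pairs. With 3 libraries per group, these correlations cannot exclude a pairing or a shared batch. The counts moved when libraries were weighted or left out. Array quality weights gave 321 higher and 222 lower over all genes and 4 and 10 among channel genes. Without replicate 3 of both groups these were 874 and 640, and 6 and 19. Leaving out single libraries gave 0 to 786 higher and 0 to 531 lower over all genes, and 0 to 5 and 0 to 17 among channel genes, with every call made without fl/fl replicate 3. The count of channel genes wholly higher in CS-Mpc2-/- (4 with all 6 libraries) was 1 with upper quartile scaling, 2 with median-of-ratios scaling, 14 without replicate 3 of both groups and 4 to 10 without single libraries. The count wholly lower (13) was 16 with upper quartile scaling, 15 with median-of-ratios scaling, 37 without replicate 3 of both groups and 13 to 31 without single libraries. Fewer libraries make separation of groups easier, so these counts cannot fall when libraries are left out.

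Class medians of the log2 difference without single libraries ran from -0.56 to -0.29 for potassium, -0.27 to -0.048 for sodium, -0.26 to -0.057 for calcium and -0.31 to -0.057 for other channels. The sodium median was 0.14 with a mean of at least 5 ppm and -0.017 without replicate 3 of both groups. The calcium median was -0.20 with array weights and -0.30 without replicate 3 of both groups, where that of the other channels was -0.36. Mpc2 had -1.30 there (limma adjusted p = 0.00279, and 0.453 with all 6 libraries). That fit drops the knockout library with the highest Mpc2 level (46.3 ppm), which by itself widens the Mpc2 difference. The smaller p-value is therefore descriptive and is no test of the deletion. Of 807 values for 45 channel genes over 18 alternatives, 736 kept direction and side of the threshold, 58 passed it anew, 0 lost it and 13, in 6 genes with small differences, changed sign. Since 0 channel genes passed the threshold in the unaltered fit of all 6 libraries, none could lose it, and the 736 values stayed uncalled. A change of the filter or of limma's prior, or the replicate block, leaves each log2 estimate as it is, so those values could not change sign. Kcna4 was at -0.0096 with a pseudocount of 5 ppm and -0.42 to 0.53 without single libraries. Kcnj8 was at 0.088 without replicate 3 of both groups and -0.11 to 0.069 without single libraries. The ranges without single libraries were -0.34 to 0.067 for Cacna2d1, -0.16 to 0.082 for Kcna5, -0.25 to 0.045 for Trpc1 and -0.31 to 0.015 for Trpc4ap. The cause was not tested. The spread of 3 pools per group, and the low depth of fl/fl replicates 1 and 2 on which the calls rest, limit the precision for genes of a few ppm.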
